A study of Mus musculus with 8 samples.

Results

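Wild-type HELLS peaks were compared with wild-type H3K27me3 peaks in mouse embryonic fibroblasts, by chromatin immunoprecipitation and sequencing (ChIP-seq). The 2489 HELLS peaks and 17064 H3K27me3 peaks called by the authors were joined wherever they shared at least 1 bp. This gave 18990 regions of 15.3 Mb, out of 27092 regions when all 6 peak lists of the series are merged. Of the 18990 regions, 1931 (10.2%) held HELLS peaks alone, 552 (2.91%) held peaks of both lists and 16507 (86.9%) held H3K27me3 peaks alone.

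The series holds 8 samples of embryonic fibroblasts from day E13.5, either wild type or E2f3 null (E2f3-/-), each from 1 genotype and 1 immunoprecipitation (E2F3, HELLS, H3K27me3 or control IgG). The fibroblasts were grown in medium with serum, and no other treatment is named. Each combination of genotype and antibody was 1 library, and the labels do not say whether cells of several embryos were pooled. Both IgG files were identical, with 7223444 lines, and served as 1 background without a genotype of its own. The authors' peak calls name IgG controls of 3444066 and 3791438 tags, which add up to nearly that size, so the file may hold both controls pooled; this was not tested. No difference below has a biological replicate, so no test across samples was possible, and the 95% intervals cover counting error only.

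HELLS, also called LSH, is a helicase of the SNF2 family that remodels nucleosomes and is known for its part in DNA methylation of repeated sequences. H3K27me3, trimethylated lysine 27 of histone H3, is laid down by Polycomb repressive complex 2 and marks genes kept silent, often at CpG-rich promoters and over long domains around developmental genes. E2F3 is a transcription factor that binds promoters of cell cycle genes, and the study examined HELLS as its partner. The E2F3 library is used here as a second factor to set beside HELLS.

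The wild-type libraries held 5318920 distinct reads for HELLS, 5640555 for H3K27me3 and 4775822 for E2F3, and the IgG file held 7219419. The E2f3-null libraries, which took no part in choosing the regions, held 5377465 for HELLS and 3799779 for H3K27me3. Enrichment is given as the ratio of ChIP to IgG reads after scaling each library by its reads outside all peaks, so that 1 is the background. In the authors' lists, 2196 of the 2489 HELLS peaks had a false discovery rate over 5%, against 0 of the 17064 H3K27me3 peaks. No Hells-deficient cells were analysed, so the antibody has no such control here.

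Of the 2489 HELLS peaks, 558 shared at least 1 bp with an H3K27me3 peak, which is 22.4% (95% Clopper-Pearson interval 20.8 to 24.1). In the other direction, 557 of 17064 H3K27me3 peaks (3.26%, 3.0 to 3.54) carried a HELLS peak. E2F3 peaks met the mark nearly as often, with 1832 of 8889 on an H3K27me3 peak (20.6%, 19.8 to 21.5). The H3K27me3 peaks covered 0.756% of the effective genome and held 1.91% of IgG reads. The HELLS library had 2.42% of its reads there, against 3.18% for E2F3 and 14.3% for H3K27me3. The share of HELLS reads that fell in marked peaks was therefore above IgG but below E2F3.

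Stronger peaks overlapped more often in both lists. The share of HELLS peaks on an H3K27me3 peak was 16.2% in the lowest of 4 equal classes of the authors' HELLS score, then 19.8%, 25.1% and 28.6% in the highest. For H3K27me3 peaks, the share with a HELLS peak was 1.08% in the lowest of 4 such classes, 1.45% and 2.79% in the middle ones and 7.74% in the highest. Peak width also went with overlap: regions of both lists had a median of 1261 bp, against 496 bp for HELLS alone and 578 bp for H3K27me3 alone. The part of width in the overlap was not tested. HELLS peaks that carried an E2F3 peak were on the mark in 26.1% of cases (24.0 to 28.3), and those without one in 15.4% (13.0 to 18). Over the autosomes the marked share ran from 15.9% on chromosome 16 to 28.0% on chromosome 7, and on the X chromosome it was 7 of 18 peaks.

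The classes differed in how much E2F3 they carried. An E2F3 peak lay in 62.7% of the regions with HELLS alone, in 77.4% of those in both lists and in 8.21% of those with H3K27me3 alone. E2F3 reads were 6.74, 3.53 and 1.67 times IgG in the 3 classes. Regions with HELLS alone thus had the highest E2F3 level of the 3 and regions with H3K27me3 alone the lowest.

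HELLS itself was 3.22 times IgG (3.16 to 3.27) over the regions with HELLS alone, 2.23 (2.18 to 2.29) in those of both lists and 1.21 (1.20 to 1.22) in those with H3K27me3 alone. The wild-type HELLS library chose the first 2 classes, so their height is a description. The E2f3-null HELLS library, which chose none of them, gave 3.11, 2.32 and 1.21. Over whole regions, the lower ratio in both lists than in HELLS alone was thus also present in a library that did not set the peaks. Regions of both lists were wider, and the part of width in their lower ratio was not tested. In equal windows, within 500 bp of HELLS summits, HELLS was 2.67 times IgG at peaks on an H3K27me3 peak and 2.76 at the others. E2f3-null HELLS gave 2.76 and 2.74 there, so its ratio was not lower at marked peaks in equal windows.

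The regions with H3K27me3 alone are the marked places without a HELLS peak. IgG reads also took part in choosing them, and how far that moves their ratios was not tested. Their median log2 of HELLS over IgG was 0.32 (0.29 to 0.36, with 0.5 added to both counts), and HELLS was above IgG in 60.4% of the 16507 regions. In the same regions the median log2 was 0.17 for E2f3-null HELLS and 0.42 for E2F3. The 0.5 was added before scaling, so equal ChIP and IgG counts gave 0.47 for HELLS, 0.46 for E2f3-null HELLS and 0.72 for E2F3. Low counts are drawn towards these values, so the medians are not on equal terms. Regions without any read also count towards the 60.4%. The median region held 3 HELLS reads and 4 IgG reads, so a single region carries little information. Where at least 10 IgG reads were present, the median log2 fell to 0.16. That filter keeps 3996 of these regions and selects on the IgG count, the lower term of the ratio. Its own part in the fall was not tested.

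**Figure D1:**
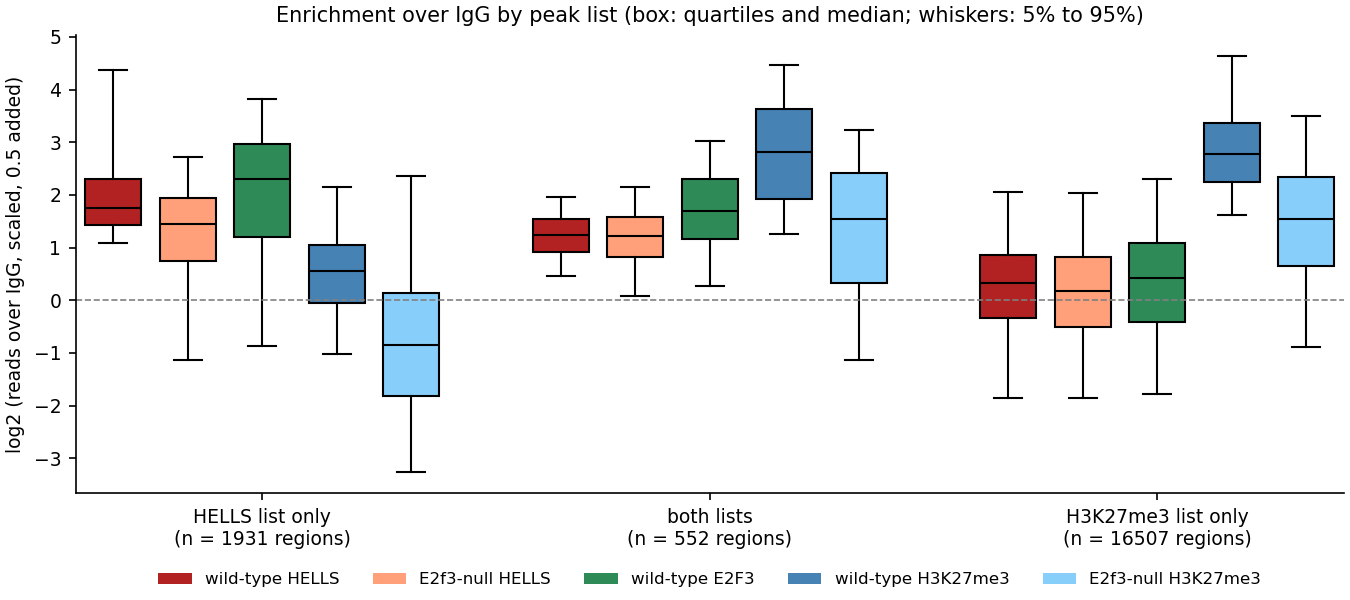
Log2 ratio of reads over IgG (vertical axis, scaled, 0.5 added to both counts) for 5 libraries in the 3 classes of region; boxes span the quartiles with the median as a line, and whiskers reach from 5% to 95% of regions. HELLS had a median of 1.75 in regions with HELLS alone and 0.32 in regions with H3K27me3 alone, while E2f3-null H3K27me3 lay below 0 at the median only in regions with HELLS alone. The 0.5 was added before scaling, so equal counts lie above 0 in all 5 libraries, at 0.47 for wild-type HELLS.

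Single regions were called when the ratio was at least 2 and the 95% interval excluded 1. HELLS was called in 408 of the 16507 regions with H3K27me3 alone (2.47%, 2.24 to 2.72), against a background of 0.686% of 1 kb bins outside peaks and 12.6% of all union regions. Bins and regions differ in width and depth, and IgG reads took part in choosing the regions but not the bins. These shares are thus not on equal terms. The share rose to 6.26% when only peaks with an authors' score of 100 or more were used and to 5.26% with at least 10 IgG reads. It was 4.2% with HELLS peaks of a false discovery rate up to 5%. A stricter HELLS list moves regions with weaker HELLS peaks into the class of H3K27me3 alone.

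Of the 408 called regions, 42 had no IgG read, so their ratios are tied as infinite. The 5 first of these by chromosome name and start, which the naming rule takes, had 5 or 6 HELLS reads. One of them, chr1:197002462-197003082 (mm9), had 6 HELLS, 22 H3K27me3, 1 E2F3 and 4 E2f3-null HELLS reads. Against a floor of 3 IgG reads it was 2.77-fold higher in HELLS, and the lower bound of the interval for the observed counts was 1.63. Ranked instead by the lower bound of the interval, an order chosen after the values were seen, chr3:91884308-91886003 was among the leading 5. It held 44 HELLS, 157 H3K27me3, 48 E2F3 and 19 IgG reads, and HELLS was 3.20 times IgG (1.83 to 5.81). With 40 reads there, E2f3-null HELLS was 2.89 times IgG, so both HELLS libraries and E2F3 were above the background at this place.

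H3K27me3 peaks lie in clusters, and joining those separated by up to 5 kb gave 9429 domains of 23.3 Mb. HELLS over the whole domains was 1.23 times IgG (1.23 to 1.24), and 1.17 (1.16 to 1.18) once HELLS peaks were left out. E2f3-null HELLS gave 1.16 and E2F3 gave 1.51 over the same sequence, whereas H3K27me3 was 7.23 times IgG. Only wild-type HELLS peaks were left out there, and E2F3 and E2f3-null HELLS peaks were kept. The gaps between the H3K27me3 peaks of a domain had HELLS at 1.02 times IgG (1.01 to 1.04), although H3K27me3 there was still 2.81 times IgG. HELLS reads within domains were therefore above IgG in the called H3K27me3 peaks and close to it in peak-free sequence between them. Scaling sets sequence outside all peaks to 1 on average, and only the gaps were freed of all peaks. IgG reads also took part in choosing the H3K27me3 peaks. These parts of the domains are thus not on equal terms.

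From 1 kb upward, the longer a domain, the closer HELLS was to the background. Without HELLS peaks the ratio was 1.25 (1.22 to 1.27) in 5218 domains under 1 kb and 1.28 (1.25 to 1.30) in 1519 domains of 1 to 2 kb. It was 1.18 (1.16 to 1.19) from 2 to 5 kb, 1.14 (1.12 to 1.16) from 5 to 10 kb and 1.10 (1.08 to 1.11) in the 471 domains of 10 kb or more. H3K27me3 had no such order, with 5.73, 7.0, 7.68, 6.78 and 7.93 times IgG from the shortest to the longest class. E2F3 followed the order of HELLS, from 2.11 at 1 to 2 kb to 1.21 at 10 kb or more. IgG density fell as well, from 1.71 at 1 to 2 kb to 0.893 at 10 kb or more (reads per kb and per 1000000 reads outside peaks). Joined domains also take in the gaps between their H3K27me3 peaks, where HELLS was 1.02 times IgG. The parts of IgG density and of the gaps in the trend were not tested.

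HELLS summits were dense in small domains. There were 72.0 summits per Mb in domains of 1 to 2 kb, 54.9 under 1 kb, 23.9 from 2 to 5 kb, 11.5 from 5 to 10 kb and 9.30 in the longest. The gaps taken in by joined domains add to their length, and their part in these densities was not tested. Over all domains the density was 23.8 per Mb, against 1.05 per Mb of the effective genome outside them. In all, 544 of 9429 domains (5.77%, 5.31 to 6.26) held a HELLS summit. The share was 15.5% (12.3 to 19.1) in the longest domains and 2.80% (2.37 to 3.28) in those under 1 kb.

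Outside the domains HELLS was close to IgG from the first kb. In sequence free of peaks, HELLS was 1.04 times IgG (1.03 to 1.05) within 1 kb of a domain and 1.02 from 50 to 100 kb away. Beyond 100 kb it was 0.982. H3K27me3 declined slowly over the same distances, from 2.11 within 1 kb to 1.19 at 10 to 25 kb and 0.849 beyond 100 kb. The E2f3-null HELLS library was 0.983 within 1 kb and 1.01 beyond 100 kb, so the small slope of wild-type HELLS in the flanks was not seen in it.

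**Figure D2:**
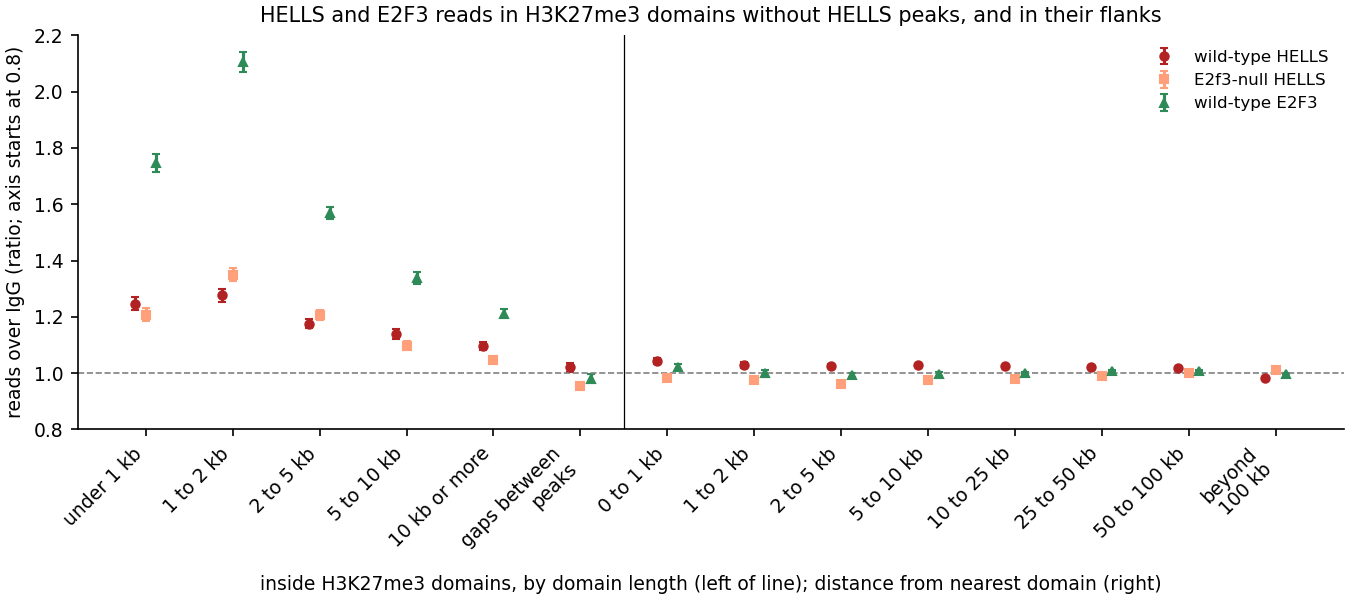
Reads over IgG (vertical axis, a ratio that starts at 0.8) for wild-type HELLS, E2f3-null HELLS and wild-type E2F3 in H3K27me3 domains without HELLS peaks, by domain length, and in peak-free sequence by distance from the nearest domain; bars are 95% counting intervals. HELLS was 1.28 in domains of 1 to 2 kb, 1.10 in those of 10 kb or more and near 1 in the flanks and in gaps between H3K27me3 peaks, both freed of all peaks.

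Within the 2692 domains of at least 2 kb, HELLS was even along the length. When each domain was divided into 10 equal parts, HELLS without its peaks stayed between 1.11 and 1.16 times IgG in every part. It was between 1.01 and 1.04 in each of the 5 kb on either side. H3K27me3 was 6.80 and 7.08 times IgG in the first and last parts and up to 7.95 within, so the mark was lower in both border parts. HELLS was 1.11 in the first part and 1.15 in the last, within its range over the other parts.

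**Figure D3:**
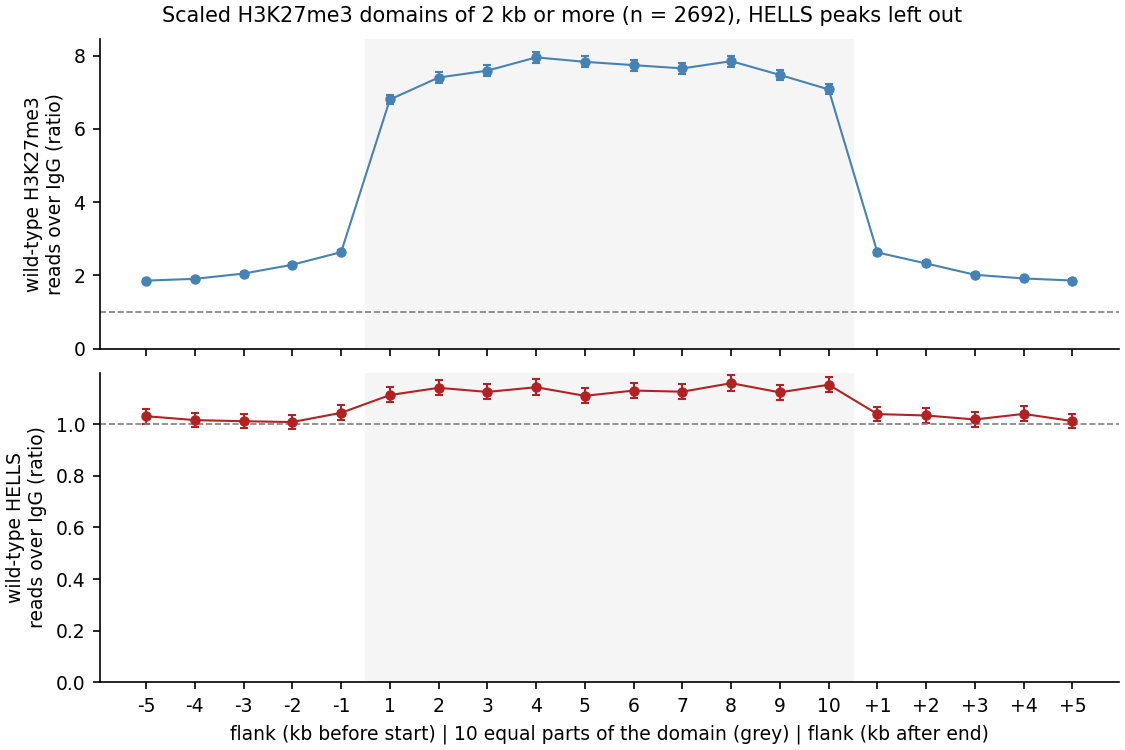
Wild-type H3K27me3 (top) and wild-type HELLS (bottom) reads over IgG along 2692 H3K27me3 domains scaled to 10 equal parts (grey), with 5 kb of flank in 1 kb steps and HELLS peaks left out; bars are 95% counting intervals. H3K27me3 rises from 2.63 in the kb before the domain to 7.95 within it, and HELLS from 1.04 to at most 1.16.

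The 3 longest domains show both outcomes. The longest, chr15:102739957-102815610 (75.7 kb, mm9), held 36 H3K27me3 peaks and 0 HELLS summits. It had 2437 H3K27me3, 296 HELLS and 440 IgG reads, so that H3K27me3 was 8.16 times IgG and HELLS 0.931 (0.801 to 1.08). The domain chr2:74485980-74554766 (68.8 kb) held 27 H3K27me3 peaks and 4 HELLS summits. Its 447 HELLS and 467 IgG reads gave 1.32 times IgG (1.16 to 1.51), and the E2f3-null HELLS library gave 1.35. The domain chr6:52153383-52216647 (63.3 kb) held 28 H3K27me3 peaks and 1 HELLS summit, and HELLS there was 1.07 times IgG (0.933 to 1.23). Of these 3 domains, HELLS exceeded IgG beyond counting error only in the chr2 domain, and the share over all domains was not computed. HELLS peaks were left in here, unlike in the length classes above, and 4 of their summits lay in the chr2 domain.

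The strongest single H3K27me3 peaks also varied in HELLS. The highest score belonged to chr5:35620381-35624272, with 568 H3K27me3, 47 HELLS, 35 E2F3 and 53 IgG reads, and HELLS was 1.23 times IgG (0.811 to 1.85). The next, chr2:146909293-146911610, was in both lists, with 513 H3K27me3, 61 HELLS and 38 IgG reads, and HELLS was 2.22 times IgG (1.46 to 3.42). The following 3 were chr6:52263131-52267758, chr4:21605079-21607616 and chr14:122872354-122876286. They had HELLS at 1.22 (0.824 to 1.80), 1.74 (1.12 to 2.72) and 1.55 (0.9996 to 2.41) times IgG. Over all H3K27me3 regions, HELLS differed little by the score of the mark. It was 1.25 times IgG (1.22 to 1.28) in the lowest of 4 score classes, 1.31 and 1.25 in the middle ones and 1.32 (1.31 to 1.33) in the highest. For E2f3-null HELLS the ratios were 1.19, 1.23, 1.23 and 1.37.

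Around HELLS summits, H3K27me3 within 500 bp was 3.18 times IgG (3.14 to 3.22) over all 2489. This mean joined 2 unlike groups. At the 558 peaks on an H3K27me3 peak it was 8.94 (8.73 to 9.16), a value set by the choice of marked peaks. At the 1931 without one it was 1.31 (1.28 to 1.33). The E2f3-null H3K27me3 library, which was not used in the choice, gave 3.79 (3.68 to 3.89) and 0.477 (0.463 to 0.491).

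At marked HELLS peaks the H3K27me3 profile was a peak centred on the HELLS summit, without a dip. H3K27me3 was 9.77 times IgG within 100 bp of the summit, 8.11 from 250 to 500 bp, 5.91 from 500 to 1000 bp and 3.0 from 4000 to 5000 bp. HELLS at the same summits was narrower, with 4.29 times IgG within 100 bp, 1.78 from 250 to 500 bp and 1.21 from 500 to 1000 bp. The marked peaks were chosen for overlap, so short distances between summits follow in part from the choice. The median distance between the summits of the antibodies was 114 bp, and 385 of 558 (69.0%) were within 250 bp. From the unmarked HELLS peaks the nearest H3K27me3 summit was a median of 83027 bp away, and 9.07% had one within 10 kb.

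At unmarked HELLS peaks all libraries had more reads at the summit, IgG included. IgG density was 2.63 reads per kb and per 1000000 reads within 100 bp and 0.596 at 4000 to 5000 bp. H3K27me3 went from 0.622 to 3.83 over the same span and HELLS from 0.623 to 11.9. As a ratio, H3K27me3 was 1.45 times IgG within 100 bp (1.41 to 1.5), 1.00 from 500 to 1000 bp and 0.925 (0.904 to 0.947) from 1000 to 2000 bp. IgG reads also took part in choosing the peaks, and how far that moves this ratio was not tested.

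**Figure D4:**
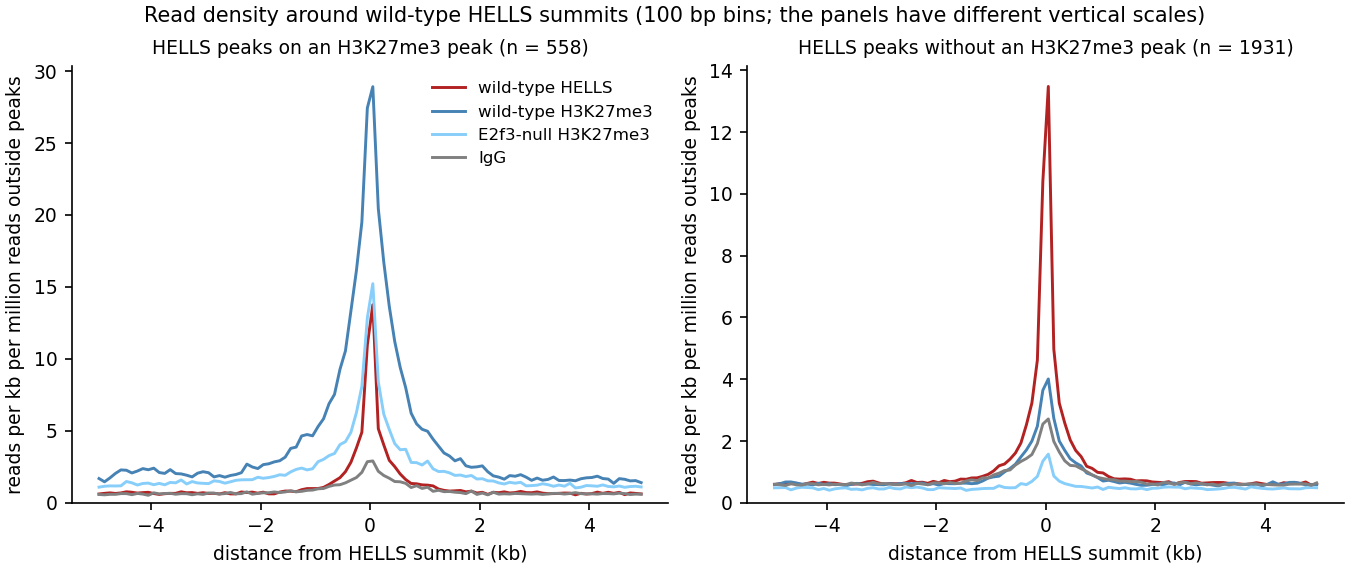
Read density (vertical axis, reads per kb and per 1000000 reads outside peaks, on different scales in the 2 panels) by distance from the summits of HELLS peaks on an H3K27me3 peak (left, 558) and without one (right, 1931), in 100 bp bins. At marked peaks H3K27me3 and HELLS both peak at the summit; at unmarked peaks H3K27me3 lies slightly above IgG at the centre and the E2f3-null H3K27me3 library lies below it.

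The E2f3-null H3K27me3 library did not show the small excess at unmarked HELLS peaks. Within 500 bp it had 5744 reads, against 21165 in the wild-type H3K27me3 library and 23823 in IgG. Its ratio was 0.394 (0.381 to 0.408) at the 1210 unmarked peaks with an E2F3 peak and 0.942 (0.889 to 0.998) at the 721 without. The wild-type H3K27me3 library gave 1.29 (1.26 to 1.32) and 1.41 (1.35 to 1.48) there. At 4000 to 5000 bp from the unmarked summits the wild-type H3K27me3 library was 1.04 times IgG (1.02 to 1.07). The E2f3-null H3K27me3 library was 0.791 (0.768 to 0.814) at that distance, so it was below IgG away from the summits as well. The 2 H3K27me3 libraries also differed in overall enrichment, with 14.3% and 6.27% of their reads in the wild-type H3K27me3 peaks. Genotype and library cannot be told apart with 1 library of each.

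Summit by summit, H3K27me3 was at least 2-fold over IgG at 527 of 558 marked HELLS peaks (94.4%) and at 156 of 1931 unmarked ones (8.08%, 6.90 to 9.38), and at most 0.5 of IgG, with an interval below 1, at 13 of the unmarked. In the E2f3-null H3K27me3 library, 30 unmarked summits (1.55%) were higher and 396 (20.5%) lower. Of 1 kb bins outside peaks, 1.39% were higher and 0.294% lower in the wild-type H3K27me3 library. In the E2f3-null one the bins gave 1.49% and 0.263%, so its share of summits called higher was close to that of the bins. The median bin held 3 IgG reads and the median unmarked summit 12, so the shares are not on equal terms. The marked peaks themselves varied: the quartiles of log2 H3K27me3 over IgG were 1.78 and 3.73 around a median of 2.71.

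Over whole regions, H3K27me3 was called at least 2-fold over IgG in 158 of the 1931 regions with HELLS alone (8.18%, 7.0 to 9.5). The background was 1.39% of 1 kb bins outside peaks, and 87% of all union regions, most of which were chosen for H3K27me3. The share fell to 3.68% when libraries were scaled by all distinct reads and was 17.1% with peaks of a score of 100 or more. That setting also drops weaker H3K27me3 peaks, so some of its regions of HELLS alone carry one. H3K27me3 was at most 0.5 of IgG in 6 of the 1931 regions (0.311%), against 0.294% of the bins. In the E2f3-null H3K27me3 library 313 regions (16.2%) were at most 0.5 of IgG, against 0.263% of the bins, and 15 (0.777%) were at least 2-fold higher, against 1.49%. The median bin held 1 E2f3-null H3K27me3 and 3 IgG reads, and the median region of HELLS alone held 9 IgG reads. Low ratios are harder to call at lower depth, so bins and regions are not on equal terms.

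Named regions show the range among peaks of HELLS alone. The strongest HELLS peak of the list, chr9:44689005-44689913, had 277 HELLS, 79 E2F3, 12 H3K27me3 and 25 IgG reads, so HELLS was 15.3 times IgG (10.2 to 24.1) and H3K27me3 0.707 (0.324 to 1.46). E2f3-null HELLS had 392 reads there, 21.6 times IgG. The next strongest, chr1:55144276-55144956, had 110 HELLS, 104 E2F3, 13 H3K27me3 and 24 IgG reads, and HELLS was 6.34 times IgG. Of the 5 strongest HELLS peaks, 1 was in both lists, and the other 4 had H3K27me3 intervals that included 1. The authors' false discovery rate was 100% for 4 of these 5 and 0% for the chromosome 9 peak.

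The lowest H3K27me3 among regions of HELLS alone was at chr10:80532789-80533069, with 0 H3K27me3 and 10 IgG reads. A floor of 3 H3K27me3 reads would give 0.442 of IgG, and the upper bound of the interval for the observed counts was 0.657. At chr12:16901180-16902103 there were 66 HELLS, 146 E2F3, 6 H3K27me3 and 31 IgG reads, so H3K27me3 was 0.285 times IgG (0.0972 to 0.694). At the other end, 7 regions of HELLS alone with an H3K27me3 interval above 1 had 0 IgG reads and tied ratios, and 5 of them were taken by chromosome name and start. Of these, chr11:34627819-34628191 had 10 HELLS and 7 H3K27me3 reads, but 0 reads in the E2f3-null H3K27me3 library. Wild-type H3K27me3 there was 3.44-fold higher against a floor of 3 IgG reads, and the lower bound of its interval was 2.12. By lower bound, an order chosen after the values were seen, chr17:13896992-13898552 was among the leading 5. It had 78 HELLS, 81 H3K27me3, 137 E2F3 and 41 IgG reads, and H3K27me3 was 2.91 times IgG (1.97 to 4.35).

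Among regions in both lists, the highest HELLS score was at chr15:79633423-79635968, with 82 HELLS, 248 H3K27me3, 128 E2F3 and 42 IgG reads. HELLS was 2.70 times IgG (1.84 to 4.02) and H3K27me3 8.70 (6.25 to 12.4). The region chr4:124333331-124336893 had 115 HELLS, 743 H3K27me3, 119 E2F3 and 66 IgG reads, with HELLS at 2.41 and H3K27me3 at 16.6 times IgG. At chr9:75472919-75474195 the antibodies were level, with 47 HELLS and 47 H3K27me3 reads over 17 of IgG, and the E2f3-null H3K27me3 library had 9 reads there, 1.05 times IgG. At chr2:37557797-37559481, 64 HELLS and 49 H3K27me3 reads stood over 25 of IgG. The fifth, chr2:130866529-130867835, had 41 HELLS, 137 H3K27me3 and 24 IgG reads. All 5 also carried an E2F3 peak.

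Read densities of HELLS and H3K27me3 were compared by Spearman rank correlation, first as they are and then given IgG density (a partial rank correlation). These are descriptions: the points share libraries, mappability and depth, and the regions were chosen on 1 or both antibodies. Over all 18990 regions the correlation was 0.096, and -0.103 given IgG. IgG itself correlated with HELLS at 0.503 and with H3K27me3 at 0.357.

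The sign depended on the class of region. Among the 17059 regions with an H3K27me3 peak the correlation was 0.423, and 0.224 given IgG. Among the 1931 regions of HELLS alone it was 0.642, and 0.274 given IgG. In the 552 regions of both lists it was negative, at -0.255, and -0.364 given IgG. E2F3 and H3K27me3 given IgG had the same signs, with 0.275, 0.220 and -0.299 in these classes.

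Over the 2483 regions with a HELLS peak, the correlation was 0.061, and -0.370 given IgG. With the E2f3-null HELLS library in place of the wild-type one, the value given IgG was 0.112. In both lists the E2f3-null HELLS library gave -0.145. The wild-type HELLS library and its IgG control set these regions, and the part of that choice in the difference was not tested. With peaks of a score of 100 or more, the value given IgG over all union regions changed sign to 0.119, and with HELLS peaks of a false discovery rate up to 5% to 0.179. With at least 10 IgG reads per region the plain correlation over union regions became -0.278.

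IgG counts were low, with a median of 5 reads per region, and how far such counts remove the shared background was not tested. When the H3K27me3 regions were divided into 5 classes of IgG density, the correlation given IgG was 0.083 and 0.100 in the 2 lowest, where the median region had 1 and 3 IgG reads, then 0.18, 0.340 and 0.284 in the others, where it had 4, 7 and 17. In regions of HELLS alone the values given IgG were 0.187, 0.317, 0.254, 0.224 and 0.137 from the lowest to the highest IgG class. The correlation thus had no common course with IgG depth in the 2 kinds of region.

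**Figure D5:**
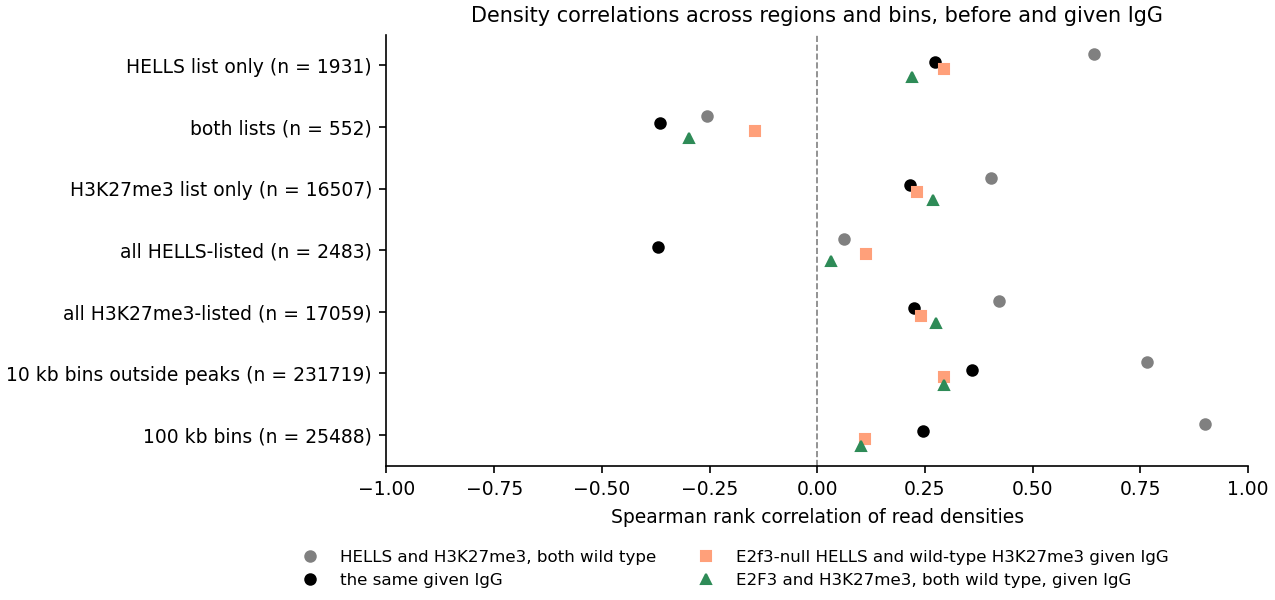
Spearman rank correlations of read density (horizontal axis) over 5 sets of regions and 2 sizes of bin, for wild-type HELLS and H3K27me3 before and given IgG, for E2f3-null HELLS and for E2F3 with H3K27me3 given IgG. Values given IgG are positive where regions were chosen for 1 antibody alone and in bins, and negative in both lists for all 3 pairs (-0.364 for wild-type HELLS) and, for wild-type HELLS, in all HELLS-listed regions (-0.370).

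Away from peaks, 231719 bins of 10 kb gave a correlation of 0.765 between HELLS and H3K27me3, and 0.359 given IgG. In 25488 bins of 100 kb, peaks included, it was 0.901, and 0.245 given IgG, while HELLS and IgG correlated at 0.979. The size of the change in HELLS was small. Bins of 10 kb were ranked by H3K27me3 over one share of the IgG reads, and HELLS was read over the remaining IgG reads. From the lowest to the highest of 5 equal classes, H3K27me3 went from 0.525 to 1.41 times IgG and HELLS from 0.964 (0.961 to 0.968) to 1.01 (1.00 to 1.01). E2f3-null HELLS went from 1.01 to 0.987, although its rank correlation with H3K27me3 given IgG in these bins was positive, at 0.295. In 100 kb bins wild-type HELLS went from 0.970 to 1.05 and E2f3-null HELLS from 1.03 to 1.01.

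Read from the H3K27me3 side, the summits of the 16507 H3K27me3 peaks without HELLS had HELLS at 1.29 times IgG (1.27 to 1.31) within 100 bp and 1.07 at 4000 to 5000 bp. At the same summits E2f3-null HELLS was 1.29 and E2F3 1.75 times IgG within 100 bp. The 557 H3K27me3 summits with a HELLS peak had HELLS at 3.13 times IgG within 100 bp, and E2f3-null HELLS also at 3.13. Without HELLS peaks, the 4 classes of H3K27me3 score, from low to high, had HELLS at 1.22, 1.30, 1.22 and 1.37 times IgG within 100 bp. HELLS, E2f3-null HELLS and E2F3 thus had an excess at marked summits of peaks without a wild-type HELLS peak. E2F3 peaks and E2f3-null HELLS peaks were not left out of these summits, so the levels of the 3 libraries are not on equal terms. IgG reads also took part in choosing the H3K27me3 peaks, and how far that moves these ratios was not tested.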

How the data were processed

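Groups came from genotype and antibody in the labels, with 1 library each. The deposited reads are aligned to mm9, per the submitters' processing notes, with 36 nucleotides sequenced from 1 end of fragments of 200 to 300 bp after 22 PCR cycles, per the labels' protocols. The aligner is not given in the sources used here. Per the file headers, the authors ran MACS 1.4.0beta on each library against IgG, with a p-value cutoff of 1e-05 and 1.87 Gb as effective genome size. For each peak the deposited tables hold a tag count, a score (the negative log10 p-value times 10), a fold ratio to local background and a percent false discovery rate. The deposited summit signal is unscaled tag height. These values only rank, filter or describe peaks. The headers name IgG controls of 3444066 (wild type) and 3791438 (E2f3-null) tags.

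From the reads, repeats of a position on the same strand were dropped and the rest moved 60 bp towards the fragment centre. Counts were scaled by reads outside all 27092 peak regions (21.5 Mb). Ratios carry exact conditional binomial 95% intervals, shares exact Clopper-Pearson intervals and medians binomial order-statistic intervals. A call needed a ratio of at least 2 (or at most 0.5) and an interval without 1. All of them cover counting error only. Correlations carry no p-value. The functions were tested on simulated data. Python 3.11.15, numpy 2.4.6 and scipy 1.17.1 were used. Regions were named by fixed rules: the 5 strongest peaks of each list and of both lists, the 5 extreme ratios in regions of 1 list, and the 3 longest domains. The alternatives comprised keeping repeats, scaling by all reads, stricter peaks, 50% overlap, summit windows, unmoved reads, other pseudocounts, folds, gaps and IgG depths, autosomes alone and divided IgG. The comparison, its lists and rules were chosen with earlier results of these data known. No mm9 genome or annotation was used, so regions are given by coordinates only and no sequence is printed.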

Additional observations from a re-analysis of the deposited data

Results flagged for a closer look

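Results were singled out where the wild-type and the E2f3-null library of 1 antibody moved in opposite directions from IgG or from 0; none of these differences was tested, since each genotype has 1 library. H3K27me3 within 500 bp of the 1931 unmarked wild-type HELLS summits was 1.31 times IgG in the wild-type H3K27me3 library and 0.477 in the E2f3-null one. Beside it, the 2 H3K27me3 libraries held 5640555 and 3799779 distinct reads, and the part of this difference was not tested. At 4000 to 5000 bp from the same summits the ratios were 1.04 and 0.791.

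The rank correlation of HELLS with wild-type H3K27me3 given IgG over the 2483 HELLS-listed regions was -0.370 with the wild-type HELLS library and 0.112 with the E2f3-null one. Over all 18990 union regions the same values were -0.103 and 0.036. The regions were listed from the wild-type HELLS library, and the part of that choice was not tested.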

How the results depend on the processing

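Of 64 recomputed values, 31 stayed within the 95% counting interval of the reported value, 30 moved outside it and 3 changed sign; the causes were not tested. Every deposited read, 50% overlap, reads not moved, autosomes alone and 3 added to both counts moved none of the values they were applied to. The 3 was also added before scaling, so equal counts gave the same log2 value as with 0.5. Scaling by all distinct reads gave H3K27me3 at 2.76 times IgG around HELLS summits, called H3K27me3 in 3.68% of regions with HELLS alone and called HELLS in 2.01% of regions with H3K27me3 alone. Requiring a score of 100 or more of both antibodies' peaks gave 19.9% of HELLS peaks on H3K27me3, 3.29 times IgG around summits, a correlation of 0.394 that was 0.119 given IgG (a change of sign), and calls of 17.1% and 6.26%. Applying that score to HELLS peaks alone, an alternative chosen after seeing the data, gave 27.3% and 3.29. HELLS peaks with a false discovery rate up to 5% gave 25.6%, a median log2 HELLS of 0.39, 3.43 times IgG, a correlation of 0.383 that was 0.179 given IgG (a change of sign), and calls of 10.6% and 4.2%. Windows of 250 bp around summits gave a median log2 of 0.47, which is the value of equal HELLS and IgG counts before scaling. They also gave 3.35 times IgG, and correlations of 0.234 and -0.046 given IgG. With at least 10 IgG reads the median log2 was 0.16, the correlation -0.278 (a change of sign) and -0.12 given IgG, and the calls 11.1% and 5.26%. Divided IgG reads gave -0.129 given IgG and calls of 5.49% and 1.69%. A fold of 1.5 called HELLS in 3.51% of regions with H3K27me3 alone. Joining domains over gaps of 2 and 10 kb gave HELLS at 1.27 and 1.20 times IgG.

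No paired analysis was possible because each group has 1 library. Depth limits single regions: a median of 4 IgG reads in regions with H3K27me3 alone lets only large ratios be called. Pooled ratios have narrow counting intervals that leave out differences between cultures, antibodies and immunoprecipitations.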
